A study of Mus musculus with 6 samples.

Results

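The nuclear-encoded oxidative phosphorylation genes examined here are the genes for the subunits of respiratory complexes I to V, for cytochrome c, and for a few proteins that share their names. They were chosen by symbol: every tabulated gene whose symbol starts with Ndufa, Ndufb, Ndufc, Ndufs, Ndufv, Uqcr, Cox4 to Cox8 or Atp5, the genes Sdha, Sdhb, Sdhc and Sdhd, and the cytochrome c genes Cycs and Cyct. The rule used no measured value and found 94 of the 23361 genes in the table. Of these, 7 encode core subunits of complex I, 29 its accessory subunits and 7 its assembly factors (Ndufaf genes). Complex II has 4 members, complex III 8, cytochrome c 2 and ATP synthase (complex V) 15. Complex IV has 11 subunits of general use, 3 isoforms known from testis and 4 isoforms known from striated muscle, heart or lung. The other members were classed by symbol as related genes, Cox7a2l and Ndufa4l2 with complex IV, and Atp5s and Atp5sl with ATP synthase. Atp5sl is named Dmac2 in GENCODE, so its place beside ATP synthase rests on its older symbol alone.

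RNA came from whole testes of 6 C57BL/6J mice about 120 days old, and all 6 were homozygous for V805A in the receptor tyrosine kinase Ret. The 3 inhibitor mice were injected daily for 9 days with 1NaPP1-HCl dissolved in vehicle, a mixture of saline, cremophor and ethanol. The 3 control mice received the vehicle alone at the same 10 µl per gram of body weight. Testes were taken after 5 days of recovery, on day 14, so the comparison describes the testis after a treatment meant to inhibit signalling by glial cell line-derived neurotrophic factor (GDNF) and a short recovery. The substitution is carried in the germ line and is present in every cell. There were no inhibitor-treated mice without it, so actions of the compound on Ret and on other proteins cannot be told apart.

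Oxidative phosphorylation passes electrons from NADH and succinate through complexes I, II and III, cytochrome c and complex IV to oxygen, and ATP synthase uses the resulting proton gradient to make ATP. Most subunits are encoded in the nucleus and imported into mitochondria; a small set is encoded in mitochondrial DNA, and those genes were not analysed here. In mammals, meiotic and postmeiotic male germ cells replace some subunits with isoforms made almost only in testis. These include the cytochrome c of Cyct and the complex IV subunits of Cox6b2, Cox7b2 and Cox8c.

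Library totals ranged from 23144295 to 43127890 fragments assigned to genes, and a gene at 1 CPM, the fragment count scaled to library size, had 23.1 to 43.1 fragments. The labels number the mice separately. Replicates differed beyond counting noise, with a chi-square per degree of freedom of 4.76 to 12.5 between inhibitor mice and 4.09 to 5.83 between controls, and inhibitor mouse 3 stood farthest from its group. Ret RNA was 0.0814, 0.0953 and 0.0883 FPKM (fragments scaled to transcript length and library size) in inhibitor mice 1, 2 and 3, against 0.314, 0.327 and 0.253 FPKM in control mice 1, 2 and 3. The log2 fold change of −1.91 (SE 0.231) had an adjusted p of 0.020 in edgeR's quasi-likelihood test, which was adjusted by the Benjamini-Hochberg method over all genes tested. That is a change in RNA; Ret kinase activity was not measured in these data.

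The oxidative phosphorylation genes were among the more abundant transcripts of the testis. Of the 94 members, 45 (47.9%) averaged over 100 FPKM across the 6 libraries, compared with 5.49% of all tabulated genes. The most abundant was Cox8c, the testis form of a small complex IV subunit, at 825.4 FPKM. It was followed by Cox6b2 at 522.8, Cox4i1 at 487.6, Uqcrq at 442.8 and Atp5b at 368.1 FPKM. Cox4i1 encodes the general isoform of the largest nuclear-encoded complex IV subunit, Uqcrq a small subunit of complex III, and Atp5b the catalytic beta subunit of ATP synthase. Together the members took 0.739%, 0.767% and 0.682% of all fragments in inhibitor mice 1, 2 and 3, against 0.688%, 0.686% and 0.691% in control mice 1, 2 and 3. The share in inhibitor mouse 3 was below that of every control, while inhibitor mice 1 and 2 were above them.

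Isoforms of other tissues were low. Cox7a1, the isoform of heart and skeletal muscle, had 3.30, 5.72 and 5.21 FPKM in inhibitor mice against 4.29, 4.18 and 6.47 FPKM in control mice. Its general counterpart Cox7a2 averaged 313.7 FPKM over the 6 libraries. Cox4i2, known from lung, averaged 0.332 FPKM, and Cox6a2, the striated muscle form of Cox6a1, averaged 0.144 FPKM, while Cox6a1 averaged 202.0 FPKM. Cox8b, another heart and muscle isoform, was listed at 0 in all 6 libraries. Cox4i2, Cox6a2 and Cox8b did not pass the filter on low counts, which left 91 members tested. Markers of skeletal muscle summed to 6.40 to 7.69 FPKM in inhibitor mice and 7.25 to 7.63 FPKM in control mice over 12 genes.

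In every library the testis isoform exceeded its somatic partner in all 4 pairs that could be set side by side, and all 4 ratios overlapped between the groups. Levels of different genes are compared on the FPKM scale, which divides by transcript length. The pairs are shown because they mark the germ-cell version of the respiratory chain. Cyct had 126.5, 153.0 and 105.2 FPKM in inhibitor mice against 111.7, 97.1 and 109.4 FPKM in control mice. Cycs, the cytochrome c of somatic cells, had 17.7, 19.9 and 17.5 FPKM in inhibitor mice against 17.9, 16.4 and 16.9 FPKM in control mice. The groups overlapped for both genes, with inhibitor mouse 2 highest.

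The Cyct-to-Cycs ratio was 6.95 ± 0.852 in inhibitor mice and 6.21 ± 0.274 in control mice (SD, n = 3 each), and Cyct made up 85.6% to 88.5% of the cytochrome c transcripts. Cox6b2, the testis form of a subunit that faces the intermembrane space, had 540.2, 533.7 and 514.6 FPKM in inhibitor mice against 528.8, 502.3 and 517.4 FPKM in control mice. Its ratio to Cox6b1 was 8.28 ± 0.263 in inhibitor mice and 8.69 ± 0.684 in control mice. Cox7b2 had 297.1, 313.9 and 214.5 FPKM in inhibitor mice against 235.6, 192.5 and 216.1 FPKM in control mice; inhibitor mice 1 and 2 lay above all controls and inhibitor mouse 3 did not.

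The ratio of Cox7b2 to Cox7b was 34.6 ± 1.38 in inhibitor mice and 34.4 ± 7.57 in control mice. It came with the smallest partner, since Cox7b averaged only 7.13 FPKM. Cox8c had 854.7, 899.1 and 854.2 FPKM in inhibitor mice against 779.3, 805.8 and 759.4 FPKM in control mice, with every inhibitor mouse above every control. Cox8a, its somatic partner, had 40.0, 40.3 and 49.1 FPKM in inhibitor mice against 43.9, 51.4 and 48.4 FPKM in control mice, with the groups overlapping. The Cox8c-to-Cox8a ratio was 20.4 ± 2.61 in inhibitor mice and 16.4 ± 1.20 in control mice.

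Differences in mean log2 ratio, inhibitor minus control, were 0.16 for Cyct and Cycs, −0.07 for Cox6b2 and Cox6b1, 0.03 for Cox7b2 and Cox7b, and 0.31 for Cox8c and Cox8a. Exact two-sided permutation tests gave p = 0.300, 0.400, 1.000 and 0.200 in that order, and 0.533, 0.533, 1.000 and 0.533 after Benjamini-Hochberg adjustment over the 4 pairs. With 3 mice against 3 the smallest possible p was 0.1, so this test could not have reached the 0.05 threshold and does not show that the ratios were alike. For Cox8c and Cox8a, the ratio was 21.4, 22.3 and 17.4 in inhibitor mice against 17.8, 15.7 and 15.7 in control mice. Inhibitor mice 1 and 2 lay above all controls and inhibitor mouse 3 among them, and without inhibitor mouse 3 the log2 difference was 0.42. The difference for Cyct and Cycs was 0.25 without inhibitor mouse 3 and 0.08 without inhibitor mouse 2.

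**Figure D1:**
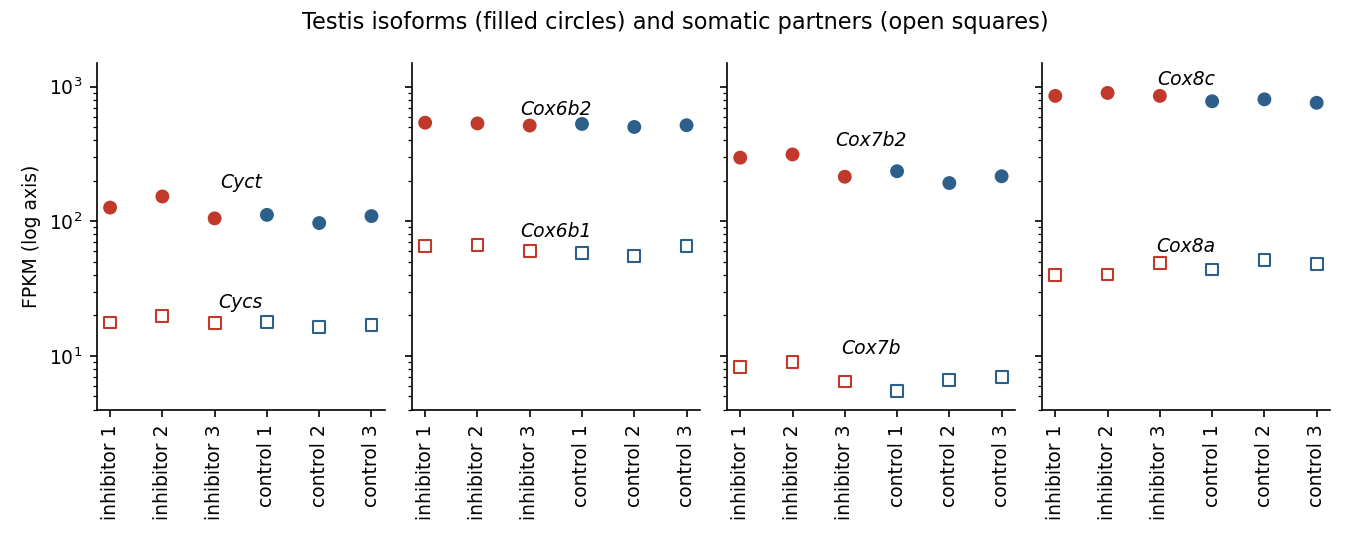
Levels (FPKM, log axis) of the testis isoform and its somatic partner in each mouse for the 4 pairs, inhibitor mice left of control mice. In every mouse the testis isoform lies above its partner, and the 2 groups overlap for every gene except Cox8c.

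The promoters of the 2 cytochrome c genes show how a testis and a somatic form of one protein differ in sequence, and that of Atp5o shows a match to the motif of nuclear respiratory factor 1 (NRF1), a known activator of respiratory genes. The windows of 300 bases around the annotated start were taken from RefSeq on GRCm38.p6, and are printed 5′ to 3′ on the gene's strand. Capitals mark matches on either strand to the NRF1 motif (GCGC, any base, then TGCGC), the cAMP response element TGACGTCA (CRE) and the CCAAT box. All 3 genes lie on the reverse strand, Cyct at chr2:76360404-76360703, Cycs at chr6:50566520-50566819 and Atp5o at chr16:91931581-91931880.
Cyct: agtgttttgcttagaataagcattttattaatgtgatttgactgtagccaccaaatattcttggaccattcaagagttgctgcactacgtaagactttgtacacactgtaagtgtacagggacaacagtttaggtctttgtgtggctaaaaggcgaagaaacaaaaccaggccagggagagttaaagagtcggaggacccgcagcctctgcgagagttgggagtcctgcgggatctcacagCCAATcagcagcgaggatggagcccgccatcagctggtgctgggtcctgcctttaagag
Cycs: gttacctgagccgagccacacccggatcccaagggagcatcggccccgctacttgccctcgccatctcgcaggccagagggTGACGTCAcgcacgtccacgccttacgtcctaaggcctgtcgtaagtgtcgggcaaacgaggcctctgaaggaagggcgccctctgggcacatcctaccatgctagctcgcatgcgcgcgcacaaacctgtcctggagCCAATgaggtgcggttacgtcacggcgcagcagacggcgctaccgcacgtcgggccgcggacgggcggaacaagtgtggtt
Atp5o: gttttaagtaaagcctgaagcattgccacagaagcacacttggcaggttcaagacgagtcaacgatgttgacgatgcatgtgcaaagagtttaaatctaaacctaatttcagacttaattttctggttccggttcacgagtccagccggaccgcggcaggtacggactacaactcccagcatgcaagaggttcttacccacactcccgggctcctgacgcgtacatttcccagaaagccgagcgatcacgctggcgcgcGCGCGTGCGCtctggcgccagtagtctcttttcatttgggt
The Cycs window holds 32 CG dinucleotides, a CRE and a CCAAT box. It also holds the stretch tcgcatgcgc, which differs from the NRF1 motif in a single base. That stretch is not marked, because only exact matches were sought. The Cyct window holds 8 CG dinucleotides and a CCAAT box. The Cox6b2 and Cox7b2 windows hold 10 CG dinucleotides each, against 17 in Cox6b1 and only 5 in Cox7b, so the order seen between the cytochrome c promoters was not shared by the Cox7b pair.

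Of the 94 members, 78 had a promoter in the table. The NRF1 motif was found in 19 of them (24.4%), compared with 7.26% of 17650 genes with a promoter. The motif is rich in CG, and member windows held a median of 20 CG dinucleotides against 15 over all genes; the part of base composition in the contrast was not tested. The CRE was found in 6.41% of members and 2.61% of genes, and the CCAAT box in 46.2% of members and 42.3% of genes. The ETS-type motif CCGGAAGT was found in 6.41% of members and 5.78% of genes. These are exact matches of letters on both strands, so sites that differ in a base were not counted, and none of the 4 motifs contains another. The median log2 fold change, inhibitor over control, was 0.05 for the 19 tested members with the NRF1 motif and 0.13 for the 58 without it.

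No oxidative phosphorylation gene passed the test between inhibitor and control mice, but most were slightly higher in the inhibitor mice. Of 91 members tested, 0 were called at an adjusted p under 0.05, where 0.156% of the 16658 genes tested were called. The fitted log2 fold change was above 0 in 77 members and below 0 in 14, with a median of 0.14, against 0.00 over all genes tested. At an unadjusted p under 0.05, 27 members (29.7%) were higher and 0 were lower, where 9.43% of all genes were higher and 8.48% lower. All inhibitor mice lay above all controls for 19 members (20.9%), against 11.0% of all genes, and below them for 2, Atp5d and Ndufa4l2, against 11.9%. DESeq2 called 7 of the 88 members to which it gave an adjusted p, all higher (Cox7a2l, Cox7b2, Ndufaf7, Ndufs4, Ndufv2, Uqcrc2 and Uqcrh), where 3.20% of all genes were called higher. In bulk tissue, a change in RNA per cell and a change in the share of cells that carry the RNA cannot be told apart.

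The shift was carried by inhibitor mice 1 and 2. For each mouse, the median deviation of the members from the control mean (log2 CPM) was 0.17, 0.23 and 0.00 in inhibitor mice 1, 2 and 3, against 0.00, −0.01 and 0.01 in control mice 1, 2 and 3. Inhibitor mouse 3 thus lay within the controls. In it, 24 of 91 members were above all controls and 22 below, where 29.6% of all genes were above and 30.8% below. In inhibitor mice 1 and 2, 61 and 71 members were above all controls, and 13 and 5 below. Of all genes, 33.3% and 34.1% were above in these 2 mice, and 34.6% and 35.5% below. For 67 of the 91 members (73.6%), inhibitor mouse 3 was the lowest of the inhibitor mice, a share that was not computed over all genes. With inhibitor mouse 3 left out, edgeR called 41 members higher and 0 lower, at a median log2 fold change of 0.19, where 8.71% of all genes were called higher and 5.54% lower. With any other mouse left out, edgeR called 0 members.

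**Figure D2:**
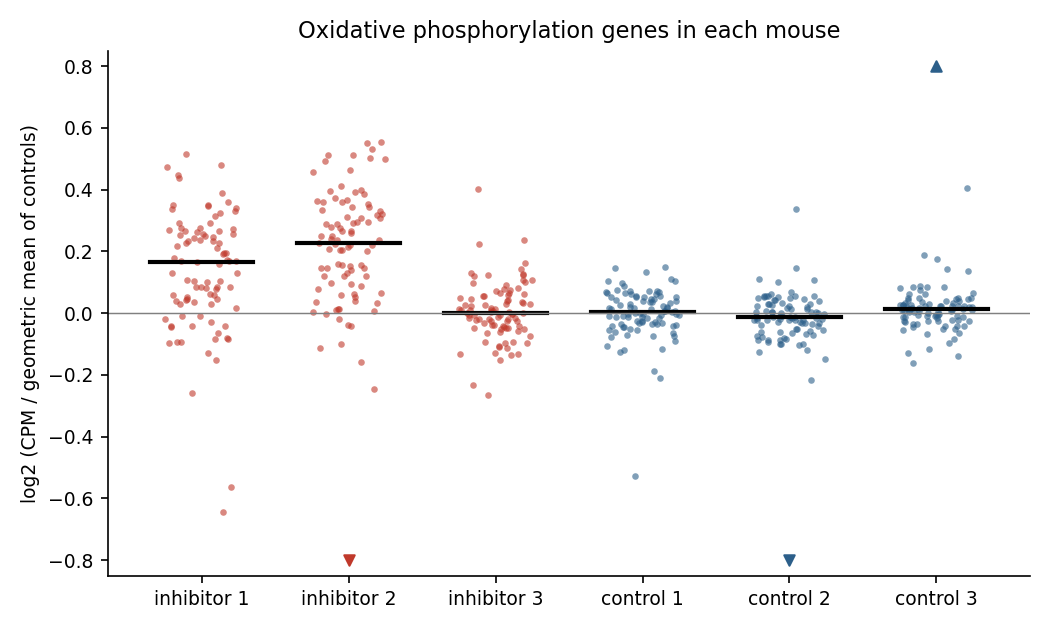
Deviation of each tested member from the control mean in each mouse (log2 CPM), with inhibitor mice left of control mice, points for genes and bars for the median of each mouse. Inhibitor mice 1 and 2 have medians of 0.17 and 0.23, inhibitor mouse 3 and the controls lie between −0.01 and 0.01, and triangles mark values beyond the axis.

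Complex I receives electrons from NADH. Its 7 nuclear-encoded core subunits, which together carry the flavin and the iron-sulphur clusters, had a median log2 fold change of 0.00. Ndufv1, which binds NADH, had 81.1, 83.8 and 84.5 FPKM in inhibitor mice against 83.0, 86.0 and 81.7 FPKM in control mice, fully overlapping (log2 fold change −0.01, SE 0.049). Ndufv2, an iron-sulphur subunit beside it, had 195.8, 205.9 and 166.2 FPKM in inhibitor mice against 167.2, 148.5 and 164.6 FPKM in control mice. Inhibitor mouse 3 lay within the controls for Ndufv2, whose log2 fold change of 0.24 (SE 0.079) had an adjusted p of 0.161 in the edgeR test. Ndufs8, another iron-sulphur subunit, had 30.6, 30.9 and 26.9 FPKM in inhibitor mice against 33.5, 31.9 and 30.2 FPKM in control mice, the lowest fold change among the core subunits at −0.10 (adjusted p = 0.532, edgeR).

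The 29 accessory subunits of complex I had a median of 0.13. At an unadjusted p under 0.05, 8 were higher and 0 lower, where 9.43% of all genes were higher and 8.48% lower. Ndufs4, which is needed for the stable assembly of the NADH-binding module, had 53.0, 58.9 and 44.1 FPKM in inhibitor mice against 42.8, 40.9 and 41.8 FPKM in control mice. Every inhibitor mouse exceeded every control, at a log2 fold change of 0.31 (SE 0.0908, adjusted p = 0.129, edgeR). Ndufb3, a subunit of the membrane arm, had 62.8, 55.7 and 54.8 FPKM in inhibitor mice against 45.0, 46.9 and 47.1 FPKM in control mice, again without overlap, at 0.32 (SE 0.081, adjusted p = 0.103, edgeR). Ndufa7, the most abundant accessory subunit, had 407.5, 381.7 and 281.9 FPKM in inhibitor mice against 314.9, 289.5 and 273.4 FPKM in control mice, where inhibitor mouse 3 lay within the controls.

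Ndufs5 could not be read in these data. Its level was 13.7, 0.00596 and 22.4 FPKM in inhibitor mice against 23.9, 10.6 and 39.2 FPKM in control mice, and it was the only member whose deposited fragment values were not all whole. Of the 81-base stretches of its transcripts, 22.3% also occur in the transcripts of BC002163, so fragments of the 2 genes may be split between them. The 7 Ndufaf assembly factors, which help to build complex I and are not part of it, were all above 0, with a median of 0.20. Ndufaf7, a methyltransferase that modifies a core subunit, had 18.0, 19.3 and 16.9 FPKM in inhibitor mice against 15.5, 14.7 and 14.8 FPKM in control mice, with no overlap (log2 fold change 0.26, SE 0.068, adjusted p = 0.103, edgeR). Ndufaf5, which hydroxylates a core subunit, had 4.12, 3.63 and 3.17 FPKM in inhibitor mice against 3.05, 2.98 and 2.64 FPKM in control mice. Ndufaf3, the most abundant of them at 232.0 FPKM over the 6 libraries, had a fold change of only 0.06.

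Complex II, succinate dehydrogenase, links the chain to the citric acid cycle and has no subunit in mitochondrial DNA. Its 4 genes had a median log2 fold change of 0.12, and 0 of them reached an unadjusted p under 0.05. Sdhb, the iron-sulphur subunit, had 87.1, 88.9 and 76.1 FPKM in inhibitor mice against 75.0, 75.5 and 80.5 FPKM in control mice. Sdhd, a membrane anchor, had 45.4, 49.4 and 46.0 FPKM in inhibitor mice against 39.6, 44.3 and 44.7 FPKM in control mice. The groups overlapped for Sdhb and not for Sdhd. Sdha, the flavoprotein, had a log2 fold change of 0.01 (SE 0.0549).

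Complex III passes electrons to cytochrome c, and its 8 members had a median of 0.15. Uqcrc2, a core subunit, had the smallest adjusted p of all members. It had 76.9, 82.7 and 70.9 FPKM in inhibitor mice against 67.1, 64.6 and 62.3 FPKM in control mice, with every inhibitor mouse above every control (log2 fold change 0.25, SE 0.0617, adjusted p = 0.0996, edgeR). Of its 81-base stretches, 23.5% are shared with Pdzd9, a gene that overlaps it on the opposite strand, so its value is uncertain. Uqcrh, the hinge protein, had 171.8, 202.4 and 151.6 FPKM in inhibitor mice against 147.0, 138.8 and 142.1 FPKM in control mice, also without overlap, at 0.29 (SE 0.0913, adjusted p = 0.141, edgeR). Uqcrq had 521.7, 489.8 and 384.4 FPKM in inhibitor mice against 436.8, 390.3 and 433.7 FPKM in control mice; inhibitor mouse 3 was the lowest of all 6. The other core subunit, Uqcrc1, had a fold change of −0.04 (SE 0.0446).

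Cytochrome c and complex IV, which hands the electrons to oxygen, gave medians of 0.19 for the 2 cytochrome c genes, 0.15 for the 11 general subunits and 0.15 for the 3 testis isoforms. Among the testis isoforms, the log2 fold changes were 0.36 for Cox7b2 (SE 0.158, adjusted p = 0.310), 0.15 for Cox8c (SE 0.0466, adjusted p = 0.133) and 0.02 for Cox6b2 (SE 0.0463, adjusted p = 0.879), all by edgeR. Cyct stood at 0.27 (SE 0.131, adjusted p = 0.328, edgeR). Cox4i1 had 544.9, 556.0 and 446.5 FPKM in inhibitor mice against 460.0, 450.7 and 467.5 FPKM in control mice, with inhibitor mouse 3 below every control. Cox6c, a small membrane subunit, had 383.3, 404.9 and 335.7 FPKM in inhibitor mice against 321.1, 325.8 and 332.0 FPKM in control mice, without overlap (0.20, SE 0.0665, adjusted p = 0.158, edgeR). Cox5a, which binds a thyroid hormone metabolite, had 318.8, 347.9 and 320.3 FPKM in inhibitor mice against 306.5, 296.1 and 303.0 FPKM in control mice, also without overlap.

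Cox7a2l, classed as related to complex IV, had 98.1, 100.5 and 88.6 FPKM in inhibitor mice against 77.2, 80.0 and 86.3 FPKM in control mice. The groups did not overlap, at a log2 fold change of 0.24 (SE 0.065, adjusted p = 0.112, edgeR). Ndufa4l2, a relative of the complex IV subunit Ndufa4 that is induced by low oxygen in other tissues, had 26.1, 25.6 and 25.6 FPKM in inhibitor mice against 26.5, 28.5 and 27.8 FPKM in control mice. Here all inhibitor mice were below all controls, at −0.10 (SE 0.0701, adjusted p = 0.465, edgeR).

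ATP synthase had a median of 0.16 over its 15 members. Its catalytic core was close to 0: Atp5b had 363.0, 378.9 and 370.8 FPKM in inhibitor mice against 363.5, 361.0 and 371.3 FPKM in control mice (log2 fold change 0.02, SE 0.0402), and the alpha subunit gene Atp5a1 had a fold change of 0.01 (SE 0.0449). Atp5c1, the gamma subunit of the rotating stalk, had 107.3, 116.3 and 101.4 FPKM in inhibitor mice against 94.9, 89.9 and 96.2 FPKM in control mice. Atp5o, the subunit that holds the catalytic head to the outer stalk, had 212.7, 217.6 and 191.0 FPKM in inhibitor mice against 189.0, 173.5 and 183.1 FPKM in control mice. Neither gene's groups overlapped, and the fold changes were 0.21 (SE 0.0597, adjusted p = 0.123, edgeR) for Atp5c1 and 0.19 (SE 0.0605, adjusted p = 0.148, edgeR) for Atp5o.

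The 3 genes for subunit c, which forms the rotating ring and is the same mature protein from each gene, differed in level. Atp5g3 averaged 108.3 FPKM, Atp5g1 83.0 FPKM and Atp5g2 55.1 FPKM over the 6 libraries, and in every library they kept that order. Their log2 fold changes were 0.14, −0.02 and −0.05 in the same order, with adjusted p of 0.355, 0.923 and 0.738 by edgeR. Atp5d, the delta subunit of the central stalk, had 83.4, 81.8 and 87.8 FPKM in inhibitor mice against 90.6, 94.4 and 88.8 FPKM in control mice, all inhibitor mice being below all controls at −0.12 (SE 0.0559, adjusted p = 0.300, edgeR). Atp5s had 30.2, 26.6 and 25.1 FPKM in inhibitor mice against 24.9, 21.9 and 25.3 FPKM in control mice, and Atp5sl had 15.5, 16.3 and 15.7 FPKM in inhibitor mice against 15.3, 15.0 and 14.8 FPKM in control mice.

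**Figure D3:**
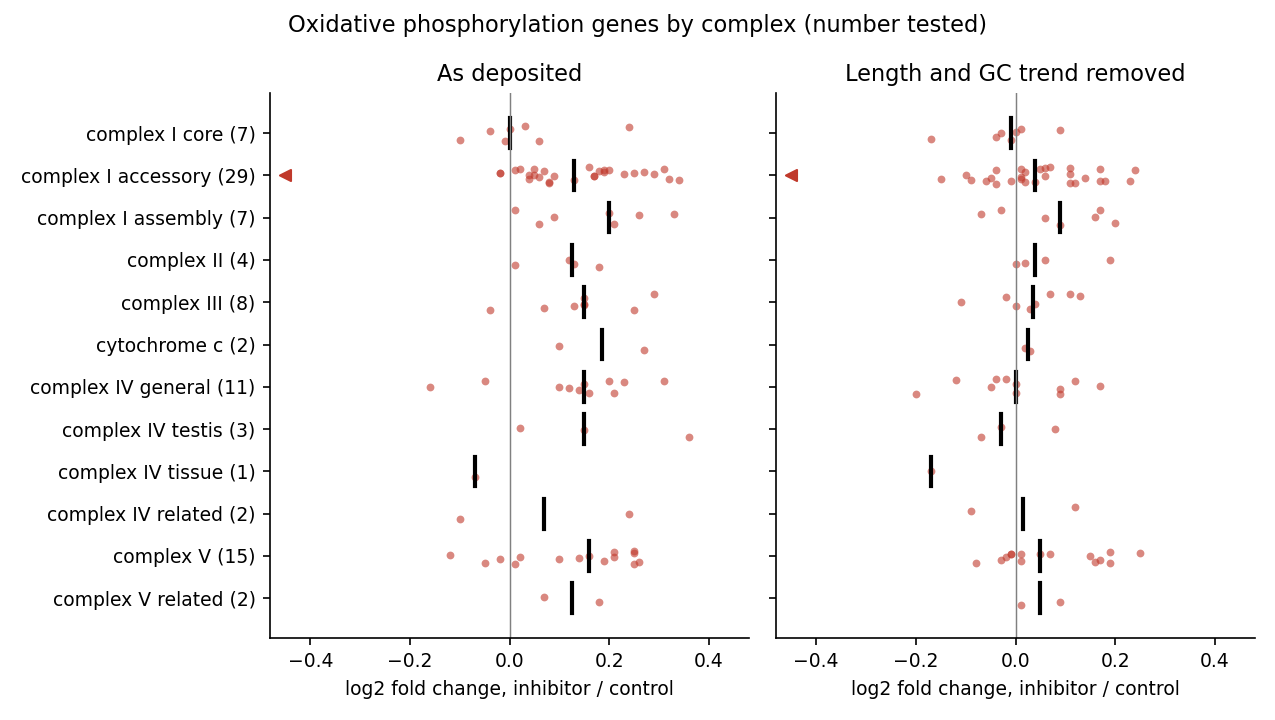
Log2 fold change, inhibitor over control, of every tested member by complex or class, as fitted and after removal of the length and GC trend, with a bar for each class median. The core subunits of complex I centre on 0.00 as fitted and most other classes between 0.12 and 0.20, while after removal the medians of classes with 3 or more tested genes lie between −0.03 and 0.09; an arrow marks Ndufs5, beyond the axis.

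Short transcripts as a whole had fold changes above 0 in the inhibitor mice, and the oxidative phosphorylation genes are short. The longest annotated transcript had a median length of 1129 nt over the members and 2793.5 nt over all genes. Among all genes tested, the 1573 under 1170.5 nt (the median of the tested members) had a median log2 fold change of 0.14, and the 14879 at or above it −0.02. Members under that length had 0.13 (45 genes) and members at or above it 0.15 (45 genes). Over the members, fold change and annotated length had a Spearman rho of −0.03 (n = 90), and with the length implied by fragments and FPKM −0.21 (n = 91); these genes share libraries, and the values are descriptions.

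After a trend on transcript length and GC content was removed from each library, the members' median was 0.02, against 0.00 over all genes. Of 91 members, 59 were above 0. Over the members, annotated length and this fold change then had a Spearman rho of 0.37 (n = 90). At an unadjusted p under 0.05, 12 members were then higher and 1 lower (Ndufs8), where 7.98% of all genes were higher and 5.74% lower. The 12 include Atp5o, which has no annotated transcript and so was not corrected; the other 11 were. Among those 11 were Ndufaf7 at 0.20, Ndufs4 and Cox6c at 0.17, Atp5c1 at 0.15 and Uqcrc2 at 0.13. Other members moved toward 0. With the trend removed, the log2 fold change was 0.11 for Ndufb3 and Uqcrh, 0.09 for Ndufv2, 0.08 for Cox7b2, 0.03 for Cyct and −0.02 for Cox5a. Cox6b2 was at −0.07 and Cox8c at −0.03, so the direction of these 2 testis isoforms changed with the trend; Cox6b2 was also at −0.01 when libraries were scaled by their totals alone. With the trend removed and inhibitor mouse 3 left out, a setting added after the data were seen, 16 members were called higher and 1 lower (Cox8a), where 4.27% of all genes were called higher and 2.09% lower. Of the 16, 15 had been corrected and Atp5o had not. Of these 17 members, 16 were also called with inhibitor mouse 3 left out and the trend kept. They included Ndufb2 at 0.39 and Ndufb4 at 0.36, which are subunits of the complex I membrane arm, and Atp5l at 0.40, which belongs to the membrane part of ATP synthase. All of these values are log2 fold changes without inhibitor mouse 3. The correction rested on the longest transcript, which is 6310 nt for Atp5l, 4371 nt for Ndufb2 and 3038 nt for Cox6c. With the trend fitted on the length implied by fragments and FPKM, in all 6 mice, values were −0.02 for Atp5l and Cox6c, and 0.00 for Ndufb2. For Ndufb4, Atp5c1, Uqcrc2, Ndufs4 and Ndufaf7 they were 0.15, 0.12, 0.17, 0.19 and 0.21. That setting was added after the data were seen.

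**Figure D4:**
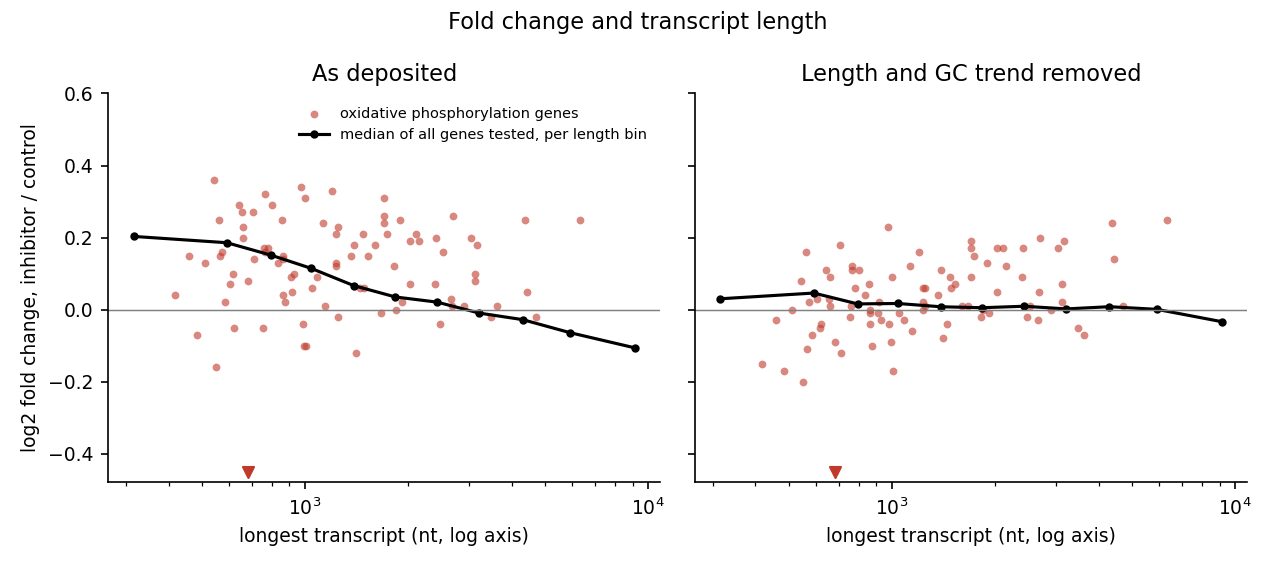
Log2 fold change, inhibitor over control, against length of the longest transcript (nt, log axis) for the members and as medians of all genes tested in bins of length, as fitted and after removal of the length and GC trend. As fitted, the medians of all genes decline with length and members under 1170.5 nt lie around 0.13; a triangle marks a value below the axis.

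Among markers of germ-cell stages, the sum for round spermatids was high in the same inhibitor mice as the members. It was 14135, 14031 and 9794 FPKM in inhibitor mice 1, 2 and 3, against 9845, 9209 and 9981 FPKM in control mice. Most of that sum is Tnp1, a short transcript for a protein that replaces histones, at 12191, 12092 and 8044 FPKM in inhibitor mice against 8079, 7533 and 8165 FPKM in control mice. Inhibitor mouse 3 thus lay within the controls for Tnp1 as it did for the members' median. Elongating spermatid markers summed to 45583, 46178 and 43201 FPKM in inhibitor mice against 39723, 40739 and 41810 FPKM in control mice. Spermatocyte markers had a median log2 fold change of 0.13 (10 of 12 above 0) and elongating spermatid markers 0.11 (11 of 12 above 0), with 0 of either list called. Round spermatid markers had a median of 0.10, with 10 of 12 above 0, 2 below and 0 called. The list includes Catsper1, which was lower in every inhibitor mouse. It had 55.9, 56.9 and 55.5 FPKM in inhibitor mice against 64.0, 60.9 and 62.0 FPKM in control mice. With the length and GC trend removed, the medians were 0.02 for spermatocyte, 0.06 for round spermatid and 0.08 for elongating spermatid markers.

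Median fold changes were below 0 for 4 lists of markers of somatic testis cells, and above 0 for adipose markers. Sertoli markers summed to 796.7, 808.4 and 1016 FPKM in inhibitor mice against 920.2, 928.9 and 894.7 FPKM in control mice, with a median of −0.09. Leydig markers had a median of −0.06, peritubular myoid markers −0.22 and macrophage markers −0.04. The sum of the macrophage list nevertheless was higher in every inhibitor mouse, at 566.4, 620.6 and 568.8 FPKM against 506.3, 515.7 and 515.4 FPKM in control mice. Most of it is Aif1, at 462.1 to 570.0 FPKM, where Csf1r of the same list had 2.65 to 3.12 FPKM. Which cells carry the Aif1 RNA was not tested. Of the 8 macrophage markers, 2, Aif1 and Lyz2, were higher at an unadjusted p under 0.05 and 0 were lower. Over all genes, 9.43% were higher and 8.48% lower. Of the 12 markers of undifferentiated spermatogonia tested, the cells that respond to GDNF, 11 were below 0 and 1 above, with a median of −0.49. By edgeR, 4 of them were called lower at an adjusted p under 0.05, Ret and Sox3 among them, where 16 of 16658 genes were. Adipose markers summed to 75.6, 40.7 and 14.0 FPKM in inhibitor mice against 47.2, 12.8 and 13.8 FPKM in control mice, the groups overlapping. Their median was 0.75, with 6 of the 6 tested above 0 and 0 called, and 0.76 with the length and GC trend removed. Epididymis markers summed to at most 4.41 FPKM in any library, with 2 of their 10 symbols at 0 throughout. The part of these cell populations in the members' shift was not tested.

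Other mitochondrial gene lists had smaller medians as fitted, but not all of them once the length and GC trend was removed. Of 43 assembly factors of the respiratory chain outside the symbol rule, 26 were above 0 and 17 below, with a median of 0.04; 9 were higher and 0 lower at an unadjusted p under 0.05. The 48 proteins of the large mitochondrial ribosomal subunit had a median of 0.10, with 35 above 0, and 14 higher and 0 lower at that threshold. Over all genes, 9.43% were higher and 8.48% lower at that threshold, and of the 91 members tested 27 were higher and 0 lower. The carriers of ATP and ADP with their relatives had a median of 0.07 (12 tested), enzymes of the citric acid cycle 0.03 (20 tested), and factors of mitochondrial biogenesis −0.01 (20 tested). With the trend removed, the medians were 0.00 for the assembly factors, 0.03 for the ribosomal proteins, 0.03 for the carriers, −0.02 for the citric acid cycle and 0.01 for biogenesis, against 0.02 for the oxidative phosphorylation genes. None of these lists held a gene called at an adjusted p under 0.05 by edgeR.

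Within the biogenesis list, Tfam, which packages and transcribes mitochondrial DNA, had 61.8, 68.4 and 57.5 FPKM in inhibitor mice against 49.7, 46.4 and 50.5 FPKM in control mice. Every inhibitor mouse was above every control, inhibitor mouse 3 included, at a log2 fold change of 0.36 (SE 0.0632, adjusted p = 0.058, edgeR) that stayed at 0.35 with the trend removed. Pprc1, a coactivator of respiratory gene transcription, had 2.53, 2.90 and 3.29 FPKM in inhibitor mice against 3.46, 4.11 and 3.66 FPKM in control mice, all lower, at −0.37 (SE 0.105, adjusted p = 0.117, edgeR). Slc25a31, the germ-cell form of the ADP/ATP carrier, had 30.8, 35.1 and 30.8 FPKM in inhibitor mice against 31.3, 30.0 and 30.5 FPKM in control mice. The groups overlapped, and the somatic relative Slc25a4 averaged 37.8 ± 2.96 FPKM in inhibitor mice and 36.0 ± 2.21 FPKM in control mice (SD, n = 3 each).

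Some oxidative phosphorylation genes share sequence with other genes, matched here on either strand. Of the 93 members with an annotated transcript, 60 shared no 81-base stretch with the transcripts of another gene and 9 shared over 20% (Cox7c, Cycs, Ndufa13, Ndufaf2, Ndufb4, Ndufb6, Ndufs3, Ndufs5 and Uqcrc2), which makes the values of those 9 uncertain. For Ndufa13, Ndufaf2, Ndufb6 and Uqcrc2, the gene that shares most is one that overlaps them on the opposite strand. Exons of 28 members overlap exons on the opposite strand, and the strand setting of the counting is not given in the sources used here.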

How the data were processed

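Polyadenylated RNA of whole testis was sequenced as single-end reads of 81 nt with a directional kit (500 ng of input), per the labels' protocols. The submitters' processing notes name cutadapt 1.8, TopHat2 2.0.13, Cuffdiff 2.2.1 and the build mm10; for their roles, the gene annotation and the strand setting, nothing is given in the sources used here. For each gene and library the authors deposited fragment values, which are expected counts, and FPKM. Of the fragment values, 98.8% were whole within 1e-06 and 337 genes held one that was not; they were rounded. A failed status marked 9 values, 0 of them in members. The deposited FPKM values, scaled by length and library size, gave levels; the fragment counts gave tests.

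The test was that of edgeR 4.0.16 under R 4.3.3 (filterByExpr, TMM, robust quasi-likelihood F-test, two-sided, Benjamini-Hochberg at 0.05 over 16658 genes; common biological coefficient of variation 8.02%), after a run on simulated data. Isoform ratios were compared by exact permutation. Alternatives used DESeq2 1.42.0 and limma 3.58.1, other scalings and filters, a mouse-number block, each mouse left out, and a per-library loess trend (span 0.5, genes with mean log2 CPM above 1) on length and GC content of the longest GENCODE M21 transcript (GRCm38, the same assembly as mm10; 98.8% of genes tested had one; the others, Atp5o among them, stayed uncorrected). Deviations per mouse are in log2 CPM without a prior count. A prior count of 2 was used for the loess trend and for the correlations between mice. Promoters are RefSeq, GRCm38.p6.

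The members and all lists were chosen with earlier results of these data known. Named are the isoform pairs, tissue isoforms and subunit c genes, and per class the most abundant member and the 2 with the smallest p. Levels in each mouse are printed for most of these and not for all, Cox6b1 and Cox7b being among those without. Of the other lists, the 2 genes with the smallest p are named only for biogenesis, undifferentiated spermatogonia and macrophages. Ndufv1, Ndufs5, Sdha, Uqcrc1, Atp5a1, Atp5d, Ndufb2, Ndufb4, Atp5l, Tnp1, Catsper1, Csf1r, Slc25a31 and Slc25a4 were named after their values were seen. The labels state only that the mice are separate, and the p-values set the difference between groups against the variation between these mice.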

Additional observations from a re-analysis of the deposited data

How the results depend on the processing

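The number of members called was 0 under every planned setting except DESeq2 and the omission of inhibitor mouse 3. DESeq2 called 7 higher. Leaving out each mouse in turn gave 0 to 41 members called higher and 0 lower, the 41 coming without inhibitor mouse 3, and a members' median log2 fold change of 0.08 to 0.19. The median of 0.14 was 0.02 with the length and GC trend removed, 0.02 with the trend removed and the replicate block, and, in settings added after the data were seen, 0.03 with the trend removed without inhibitor mouse 3 (16 members higher, 1 lower) and 0.00 with the trend fitted on the length implied by fragments and FPKM. The cause was not tested. With each mouse left out, the log2 ratio difference of Cox7b2 and Cox7b was −0.08 without control 2, −0.03 without control 3 and up to 0.20 without control 1. It ranged from 0.08 to 0.25 for Cyct and Cycs, from −0.13 (without control 3) to −0.03 (without control 1 or 2) for Cox6b2 and Cox6b1, and from 0.24 to 0.42 for Cox8c and Cox8a.

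Same-numbered mice had correlations of 0.0962, −0.066 and 0.0637 in their deviations, against −0.182 to 0.132 between mice of different numbers. With 3 mice per group, these values cannot show whether the numbers pair the mice. With the replicate block 0 members were called, the median was 0.14, and 5 of all genes were called against 26 without it. Over all genes, calls (higher and lower) were 10 and 16, against 367 and 166 by DESeq2, 0 and 2 by limma-voom, 58 and 57 without a filter, 3 and 7 with at least 50 counts in 3 libraries, 6 and 7 with the trend removed, and 1470 and 935 without inhibitor mouse 3; 4 of the other mice left out gave 0 and the last, control 3, gave 3 and 7. Limma on log2(FPKM + 1) called 0 genes and on log2(FPKM + 0.1) 1. Scaling by library totals moved the median of all genes by −0.03 and left 68 members above 0. Of the 37 named members tested, 12 changed sign in at least 1 setting, 7 of them with the trend removed.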
